A study of Mus musculus with 6 samples.

Results

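Claudin and tight junction genes were followed through RNA sequencing of white adipose tissue from mice. The 40 genes were taken from 32759 in the deposited table by symbol and by a protein-coding transcript type: 22 claudins and 18 genes of the other junction membrane proteins, the cytoplasmic plaque and the apical polarity complexes. The HFD group (n = 3) was fed a high-fat diet without tetrahydroberberrubine (THBru), and the THBru group (n = 3) ate the same diet and was treated with THBru at 50 mg per kg per day. The fat depot and the strain, sex and age of the mice are not given in the labels. Nothing in them says that samples of a group came from separate animals, so p-values measure only the spread between these samples.

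Tight junctions seal the space between neighbouring cells of an epithelium or endothelium near the apical side. Claudins are four-pass membrane proteins whose strands form the seal. Some tighten it, and others form channels for ions and water, so each epithelium is known by its own mix of claudins. Fat cells form no such sheet. In fat, tight junction genes are known chiefly from blood vessel endothelium and, in visceral depots, from the mesothelium that covers the tissue.

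The libraries held 67.2e6 to 77.0e6 counts, so that a count of 0 allowed up to 0.0390 to 0.0446 counts per 1e6 total counts (CPM) in a library. Genes of other organs stood high in the THBru libraries. A list of 7 seminal vesicle genes summed to 405579 CPM in THBru 1, against 505 to 604 CPM in HFD. A list of 9 epididymis genes summed to 49231 CPM in THBru 3, against 55.2 to 63.2 CPM in HFD. A list of 8 kidney tubule genes summed to 1169 CPM in THBru 2 and to 108 CPM in THBru 3, against 2.96 to 46.1 CPM in HFD, where 2 to 4 of its genes were at 0. The general epithelium list, 9 genes that include Epcam, stood at 11.9 to 89.5 CPM in HFD and at 1006, 411 and 1727 CPM in THBru 1 to 3. The mature adipocyte list, 10 genes that define the labelled tissue, stood at 21700 to 36992 CPM in HFD, 5515 CPM in THBru 1, 26883 CPM in THBru 2 and 2900 CPM in THBru 3, and none of its genes was at 0 in any library. The part of these transcripts in the results below was not tested, and they accompany each difference between the groups given here.

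The mix of claudins differed from library to library. In the HFD libraries Cldn5 held 59.7, 60.8 and 76.0% of the summed claudin FPKM (fragment counts scaled to gene length and depth, so that genes can be compared), and Cldn15 held 32.6, 33.6 and 21.2%. Cldn12 followed with 4.55, 2.91 and 2.00%, and the other 19 claudins shared the rest. THBru 2 kept Cldn5 first with 58.7%, ahead of Cldn15 with 15.2% and Cldn2 with 14.8%. In THBru 1 the order was Cldn3 (35.0%), Cldn4 (23.5%) and Cldn8 (20.3%), with Cldn5 at 6.03%. In THBru 3 it was Cldn2 (40.1%), Cldn3 (19.8%) and Cldn4 (11.6%). In all 3 HFD libraries Cldn5, Cldn15 and Cldn12 led in that order, whereas the leading claudin was a different one in each THBru library. Shares of counts, which favour long transcripts, put Cldn8 first in THBru 1 (26.0%, against 23.9% for Cldn3) and Cldn2 (25.4%) ahead of Cldn15 (16.7%) in THBru 2.

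**Figure D1:**
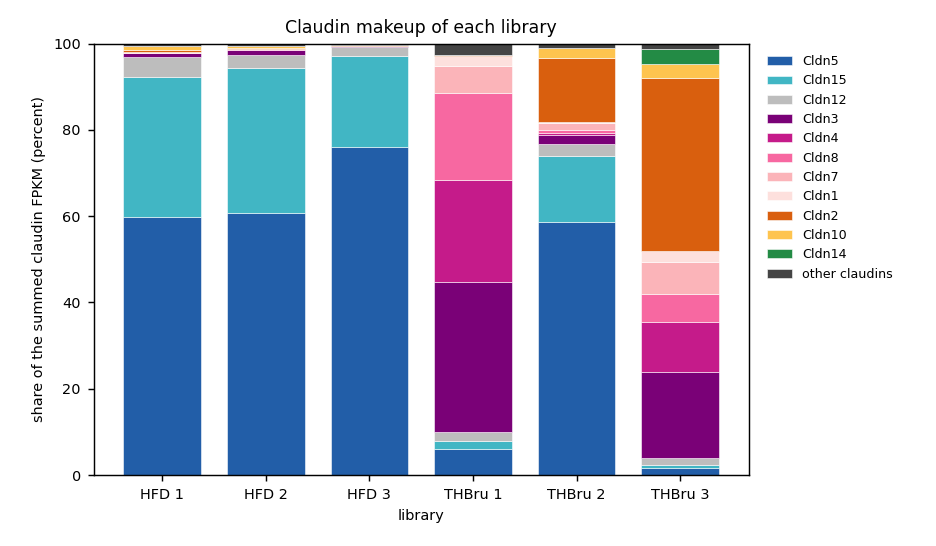
Share of the summed claudin FPKM (percent, vertical axis) held by each claudin in each of the 6 libraries (horizontal axis), drawn as stacked bars. Cldn5 and Cldn15 fill most of the HFD bars, while Cldn3 leads THBru 1 with 35.0%, Cldn5 leads THBru 2 with 58.7% and Cldn2 leads THBru 3 with 40.1%.

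The 22 claudins together stood at 164, 349 and 413 CPM in HFD 1 to 3 and at 362, 749 and 1397 CPM in THBru 1 to 3. Without the 3 claudins that led in HFD, a choice that by itself lowers the HFD sum, the remaining 19 summed to 6.35, 10.1 and 4.50 CPM in HFD and to 322, 256 and 1336 CPM in THBru. The full claudin sum of THBru 1 thus lay inside the HFD range, and the sum of the 19 lay above it in all 3 THBru libraries. With TMM scaling (trimmed mean of M-values, as in the edgeR test), which sets THBru 1 higher, the full sum was 574 CPM in THBru 1 against 152 to 383 CPM in HFD.

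The barrier claudins Cldn1, Cldn3, Cldn4, Cldn7 and Cldn8 of epithelia stood higher in THBru with no overlap between the groups. In CPM of the total count, 10.4% of all tested genes did so. All THBru libraries were 17.3-fold or more above the HFD mean for Cldn4, Cldn7 and Cldn8. Cldn4, a claudin of many simple epithelia, stood at 0.104, 0.289 and 0.162 CPM in HFD 1 to 3 and at 83.8, 3.20 and 117 CPM in THBru 1 to 3. Its neighbour Cldn3, which also tightens epithelial junctions, stood at 1.08, 3.10 and 0.716 CPM in HFD and at 86.5, 10.1 and 139 CPM in THBru. Both genes were high in THBru 1 and THBru 3 and closer to HFD in THBru 2, and the groups did not overlap. Cldn8, a claudin of the distal nephron and other tight epithelia, stood at 0.208, 0.289 and 0.162 CPM in HFD and at 94.2, 6.15 and 85.8 CPM in THBru. Cldn7, found on the lateral membrane of many epithelial cells, stood at 0.156, 0.419 and 0.135 CPM in HFD and at 23.5, 12.0 and 80.6 CPM in THBru. Cldn1, the essential barrier claudin of the epidermis, stood at 0.416, 0.765 and 0.797 CPM in HFD and at 23.4, 5.03 and 69.4 CPM in THBru. For all 5 genes THBru 2 was the lowest THBru library and still lay above every HFD library. THBru 1 and THBru 3 were also the libraries with the high seminal vesicle or epididymis list and with the lowest adipocyte sums.

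None of the 5 passed the edgeR test across all genes, whereas DESeq2 called all 5, with adjusted p-values of 4.57e-16 (Cldn7) to 7.08e-07 (Cldn3). DESeq2 called 10.3% of all tested genes as higher. The log2 fold changes by edgeR were 8.82 for Cldn4 (SE 1.67, adjusted p = 0.130), 8.52 for Cldn8 (SE 1.43, adjusted p = 0.111), 7.46 for Cldn7 (SE 1.05, adjusted p = 0.0960), 5.85 for Cldn3 (SE 1.29, adjusted p = 0.150) and 5.79 for Cldn1 (SE 1.09, adjusted p = 0.127). Without THBru 2, the lowest THBru library for each, all 5 passed in edgeR, with adjusted p-values of 0.00857 (Cldn8) to 0.0255 (Cldn3). In that fit 5.06% of all genes passed as higher. None of the 5 passed with any other library left out. Their edgeR adjusted p-values were then 0.1025 (Cldn7, without THBru 1) to 0.4325 (all 5, without HFD 1). In those fits 0 to 0.489% of all genes passed as higher. The exons of Cldn3 overlap Wbscr25 on the opposite strand, and the strand setting of the counting is not given in the sources used here, so its counts are uncertain.

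Cldn4 (ENSMUSG00000047501) and Cldn3 (ENSMUSG00000070473) lie 39.3 kb apart on chromosome 5, at 134945119 to 134946934 on the minus strand and 134986214 to 134987472 on the plus strand (GRCm38). Cldn13, an erythroid and rodent-specific claudin gene, lies 29.6 kb from Cldn4 and had at most 4 counts in any library. On chromosome 16, Cldn8 lies 53.8 kb from Cldn17, which had at most 4 counts in any library, and Cldn1 lies 91.3 kb from Cldn16, which had 24 counts in THBru 3 and 0 in the other 5 libraries. The FPKM ratio of the neighbours Cldn3 and Cldn4 was 14.9, 15.5 and 6.39 in HFD and 1.49, 4.55 and 1.72 in THBru.

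Cldn3, Cldn4, Cldn7 and the occludin gene Ocln are known targets of Snail, a repressor of epithelial genes that binds E-boxes in their mouse promoters. Their 250 bases before a RefSeq start site (GRCm38.p6) are shown because these genes stood higher together, with each match to the E-box CACCTG, or CAGGTG on the other strand, in capitals. The windows are chr5:134985964-134986213 on the plus strand for Cldn3, chr5:134946935-134947184 on the minus strand for Cldn4, chr11:69965171-69965420 on the plus strand for Cldn7 and chr13:100552499-100552748 on the minus strand for Ocln.
Cldn3: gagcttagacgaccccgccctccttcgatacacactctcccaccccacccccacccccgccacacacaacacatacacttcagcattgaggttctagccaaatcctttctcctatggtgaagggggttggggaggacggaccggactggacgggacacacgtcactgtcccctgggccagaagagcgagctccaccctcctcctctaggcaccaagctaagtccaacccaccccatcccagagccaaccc
Cldn4: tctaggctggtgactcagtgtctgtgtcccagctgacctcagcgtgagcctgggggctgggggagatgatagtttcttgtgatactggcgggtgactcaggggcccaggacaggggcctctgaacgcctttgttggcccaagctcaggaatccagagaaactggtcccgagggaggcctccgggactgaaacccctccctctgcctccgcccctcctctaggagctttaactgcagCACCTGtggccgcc
Cldn7: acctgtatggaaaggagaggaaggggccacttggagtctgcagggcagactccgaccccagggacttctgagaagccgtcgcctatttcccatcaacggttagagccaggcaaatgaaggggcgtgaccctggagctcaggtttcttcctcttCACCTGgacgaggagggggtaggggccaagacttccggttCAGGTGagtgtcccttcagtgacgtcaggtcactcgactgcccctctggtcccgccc
Ocln: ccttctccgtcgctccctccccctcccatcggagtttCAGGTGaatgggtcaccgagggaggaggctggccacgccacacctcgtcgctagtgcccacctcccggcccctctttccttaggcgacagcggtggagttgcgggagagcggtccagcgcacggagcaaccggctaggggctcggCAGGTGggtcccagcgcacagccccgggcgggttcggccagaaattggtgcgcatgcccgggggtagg
Cldn4 held 1 match, which begins 14 bases before the start, and a further match begins at base 12 after the start. Cldn7 and Ocln held 2 each, and Cldn3 held none in this stretch but 1 that begins at base 32 after the start. Of the 40 genes, 33 had a RefSeq window, and 12 of these (36.4%) held the motif in the 250 bases before at least 1 start site, against 19.4% of the 27025 genes with a window. The grainyhead-like motif AACCGGTT was in none of the 33 and in 0.14% of all genes. A motif this rare would be missing from most sets of 33 genes, so its absence says nothing about this set. Cldn7 and Ocln have 2 RefSeq start sites each. For each, the window with more matches was chosen to be shown, so their matches are in part a result of that choice. The windows shown belong to the downstream sites, 642 and 220 bases inside the genes, and those of the upstream sites held 0 matches. A match is a run of letters and not a measured binding site.

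The channel-forming claudins Cldn2 and Cldn10 followed a different order of libraries. Cldn2, which forms a channel for cations and water in the proximal tubule and other leaky epithelia, stood at 1.43, 1.13 and 1.34 CPM in the HFD libraries, and at 0.999, 190 and 744 CPM in THBru 1, 2 and 3. THBru 1 was thus close to the HFD libraries, below them in CPM of the total count and above them with TMM scaling (1.58 CPM against 1.10 to 1.32 CPM), while THBru 2 and THBru 3 were 146-fold and 574-fold above the HFD mean. The kidney tubule list stood at 1.94 CPM in THBru 1, with Slc12a1, Aqp2 and Slc22a6 at 0, at 1169 CPM in THBru 2 and at 108 CPM in THBru 3. A ciliated epithelium list of 6 genes stood at 2.82 to 4.99 CPM in HFD and at 3.74, 280 and 80.6 CPM in THBru. Both lists were higher in THBru 2 than in THBru 3, whereas Cldn2 and Cldn10 were higher in THBru 3. The epididymis list stood at 55.2 to 63.2 CPM in HFD and at 136, 85.2 and 49231 CPM in THBru 1 to 3. The part of any of these lists in the levels of Cldn2 and Cldn10 was not tested. In the fit with all libraries the log2 fold change of Cldn2 was 7.82 (SE 2.06, edgeR adjusted p = 0.168), and without THBru 1 it was 8.39 (SE 0.79, edgeR adjusted p = 0.0464). Of all genes, 0.489% passed as higher without THBru 1. Cldn2 (ENSMUSG00000047230) lies on chromosome X at 139800828 to 139811386, plus strand.

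The Cldn2 promoter, which holds no CACCTG or CAGGTG in its 250 bases, is also shown (chrX:139800558-139800807, plus strand, GRCm38.p6). Lack of this motif does not set Cldn2 apart. Cldn3 lacked it in the same stretch, while Cldn14, F11r and Pard3, whose groups overlapped, held it. Its capitals mark TATAAA, the TATA box.
Cldn2: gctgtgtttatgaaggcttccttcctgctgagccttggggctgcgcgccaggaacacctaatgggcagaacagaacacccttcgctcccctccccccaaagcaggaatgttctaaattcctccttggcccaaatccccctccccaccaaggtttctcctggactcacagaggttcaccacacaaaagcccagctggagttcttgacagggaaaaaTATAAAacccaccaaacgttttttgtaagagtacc
The match begins 35 bases before the start. TATAAA or TTTATA was in 3 of the 33 windowed genes (9.09%) and in 14.3% of all genes with a window.

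Cldn10, whose isoforms form anion or cation channels in kidney and other secretory or absorptive epithelia, stood at 1.96, 2.83 and 0.324 CPM in HFD and at 0.444, 22.9 and 47.8 CPM in THBru. It resembled Cldn2 in that THBru 1 lay near the HFD levels and the other THBru libraries above them (log2 fold change 3.68, SE 1.51, edgeR adjusted p = 0.221). Cldn14, a barrier claudin of the inner ear, kidney and liver, had more than 5 counts in only 1 library. Its counts were 5, 4 and 5 in HFD, 0 in THBru 1 and THBru 2, and 2727, or 40.6 CPM, in THBru 3. Its fitted log2 fold change of 7.62 (SE 3.37, edgeR adjusted p = 0.240) was −5.15 without THBru 3, a value that depends on the handling of 0 counts. Cldn23 ran the other way across the THBru libraries, at 0.701, 0.520 and 0.473 CPM in HFD and at 8.56, 0.176 and 3.77 CPM in THBru. THBru 2 was the lowest library of Cldn23. Over all libraries its log2 fold change was 3.41 (SE 1.42, edgeR adjusted p = 0.2265).

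Low claudins were also found in particular THBru libraries. Cldn19, which pairs with Cldn16 in the thick ascending limb of the kidney, had 46 counts in THBru 2 and 0 in the other 5 libraries, at least 49.4-fold above the limit that 0 counts over the HFD group allow. Exons of Cldn19 overlap Gm12927 on the opposite strand, and Cldn16 had 0 counts in THBru 2. Cldn6 and Cldn9, claudins of embryonic and neonatal epithelia, had 109 and 134 counts in THBru 2 and 40 and 32 counts in THBru 3. In HFD Cldn6 had 0 counts, and Cldn9 had 8, all in HFD 3. Their annotated genes converge on chromosome 17 with 137 bases between them. Cldn11, the claudin of myelin and Sertoli cells, had 14, 23 and 0 counts in HFD 1 to 3, against 4, 96 and 399 in THBru 1 to 3. Over all libraries its log2 fold change was 3.73 (SE 1.85, edgeR adjusted p = 0.271). Cldn13, Cldn17, Cldn18, Cldn20 and Cldn24 stayed under 0.5 CPM in every library.

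The pair of claudins that led in HFD behaved unlike the epithelial ones. Cldn5, the main claudin of endothelium and of the blood-brain barrier, stood at 77.1, 172 and 273 CPM in HFD 1 to 3 and at 16.8, 321 and 13.3 CPM in THBru 1 to 3. Cldn15, a cation channel claudin best known from the intestine, stood at 63.1, 143 and 114 CPM in HFD and at 8.24, 125 and 8.39 CPM in THBru. THBru 1 and THBru 3 were below every HFD library for both genes, and THBru 2 lay above the HFD range for Cldn5 and within it for Cldn15, so the groups overlapped. The log2 fold changes were −0.68 for Cldn5 (SE 1.20, edgeR adjusted p = 0.744) and −1.27 for Cldn15 (SE 1.04, edgeR adjusted p = 0.468). Without THBru 2, Cldn15 passed as lower (−3.30, SE 0.53, edgeR adjusted p = 0.0357; 4.55% of all genes passed as lower) and Cldn5 did not (−3.09, SE 0.73, edgeR adjusted p = 0.0611).

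The endothelial list, 8 genes without Cldn5, moved with Cldn5: it summed to 1559, 1830 and 2582 CPM in HFD and to 328, 2910 and 272 CPM in THBru. Per CPM of this list, Cldn5 stood at 0.0495, 0.0939 and 0.106 in HFD and at 0.0512, 0.110 and 0.0487 in THBru, so that all 3 THBru ratios lay close to or within the HFD range of ratios. The FPKM ratio of Cldn5 to Cldn15 was 1.83, 1.81 and 3.59 in HFD and 3.06, 3.85 and 2.38 in THBru, a narrow range beside that of either gene's level. In bulk tissue, fewer cells of a type and less RNA per cell cannot be told apart. Cldn5 (ENSMUSG00000041378) lies on chromosome 16 at 18776847 to 18778262, plus strand, and Cldn15 (ENSMUSG00000001739) on chromosome 5 at 136966616 to 136975858, plus strand.

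Cldn12, a broadly expressed claudin that lacks the usual binding motif for plaque proteins, stood at 17.6, 24.6 and 21.5 CPM in HFD and at 15.7, 47.1 and 39.2 CPM in THBru. The groups overlapped through THBru 1, but did not with TMM scaling, where THBru 1 stood at 24.8 CPM and the highest HFD library at 24.1 CPM (log2 fold change 0.72, SE 0.26, edgeR adjusted p = 0.198).

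**Figure D2:**
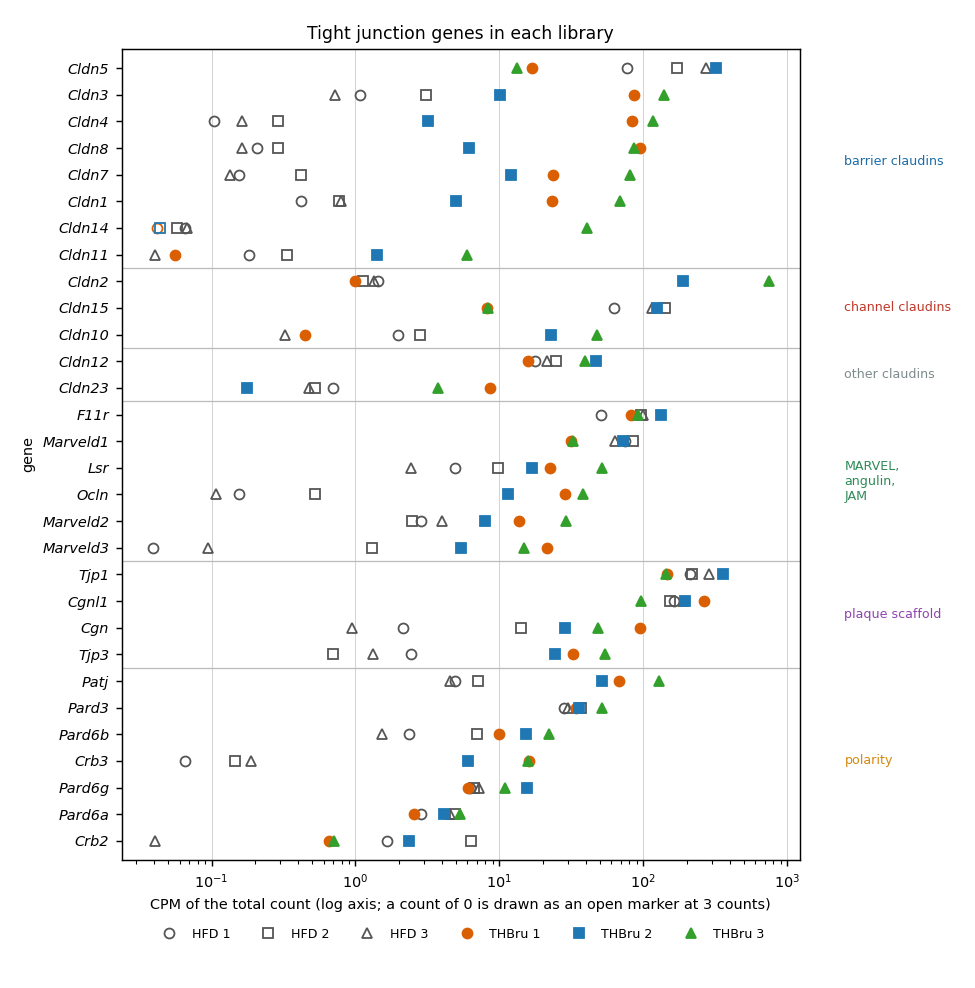
Level of 30 of the genes that reached 5 CPM in some library (vertical axis, by role) in CPM of the total count (horizontal log axis), with one marker per library and a count of 0 drawn open at 3 counts. The 3 THBru markers of Cldn4, Cldn8, Cldn7, Ocln and Crb3 lie to the right of all HFD markers, whereas those of Cldn5 fall on both sides.

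Among the other membrane proteins, the MARVEL family showed both patterns. Ocln, the occludin gene and a classical strand protein of epithelial junctions, stood at 0.156, 0.520 and 0.108 CPM in HFD and at 28.4, 11.4 and 37.9 CPM in THBru (log2 fold change 6.88, SE 1.02, edgeR adjusted p = 0.0987). Marveld2, which encodes tricellulin, the protein of three-cell contacts, stood at 2.83, 2.48 and 3.97 CPM in HFD and at 13.6, 7.89 and 29.0 CPM in THBru (2.63, SE 0.57, edgeR adjusted p = 0.149). Every THBru library exceeded every HFD library for both. The neighbours Ocln and Marveld2, 43.2 kb apart on chromosome 13, differed in their proportion between groups: the FPKM ratio of Ocln to Marveld2 was 0.0428, 0.167 and 0.0217 in HFD and 1.67, 1.16 and 1.04 in THBru. Marveld3, the third junctional MARVEL gene, had 0, 90 and 7 counts in HFD and stood at 21.4, 5.37 and 14.8 CPM in THBru (5.25, SE 1.91, edgeR adjusted p = 0.198, and 8.57 without HFD 2). Lsr, the angulin that recruits tricellulin, stood at 4.91, 9.79 and 2.45 CPM in HFD and at 22.6, 16.8 and 51.7 CPM in THBru (2.55, SE 0.69, edgeR adjusted p = 0.172). Its exons overlap Gm17077 and Gm4673 on the opposite strand.

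Marveld1, a family member not restricted to epithelia, stood at 74.2, 84.9 and 63.9 CPM in HFD and at 31.5, 72.0 and 32.4 CPM in THBru, lowest in THBru 1 and THBru 3 like Cldn5 and Cldn15 (−0.60, SE 0.31, edgeR adjusted p = 0.289). F11r, which encodes the adhesion molecule JAM-A of epithelium, endothelium and leukocytes, stood at 50.6, 96.8 and 99.2 CPM in HFD and at 82.7, 132 and 91.8 CPM in THBru. Its groups overlapped (0.47, SE 0.34, edgeR adjusted p = 0.415).

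The plaque proteins link the strands to actin. Tjp1, which encodes ZO-1, is used at many kinds of cell contact, and Tjp3 (ZO-3), Cgn (cingulin) and Cgnl1 (paracingulin) are further plaque genes. Tjp3 stood at 2.44, 0.693 and 1.32 CPM in HFD and at 32.5, 24.3 and 54.1 CPM in THBru, without overlap (log2 fold change 4.85, SE 0.65, edgeR adjusted p = 0.0886). Tjp1 stood at 212, 219 and 285 CPM in HFD and at 146, 355 and 143 CPM in THBru, with THBru libraries on both sides (−0.04, SE 0.36, edgeR adjusted p = 0.956). The FPKM ratio of Tjp1 to Tjp3 was 41.7, 153 and 103 in HFD and 2.14, 6.96 and 1.25 in THBru. Exons of Tjp3 overlap Apba3 on the opposite strand.

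Cgn stood at 2.13, 14.2 and 0.946 CPM in HFD and at 94.8, 28.5 and 48.5 CPM in THBru, highest in THBru 1 (3.70, SE 1.31, edgeR adjusted p = 0.195, and 5.67 without HFD 2). Cgnl1 stood at 163, 153 and 188 CPM in HFD and at 262, 194 and 96.4 CPM in THBru. In CPM of the total count it was above the HFD range in THBru 1 and THBru 2 and below it in THBru 3 (0.48, SE 0.58, edgeR adjusted p = 0.623, and −0.37 without THBru 1). With TMM scaling THBru 2 lay inside the HFD range, at 162 CPM against 150 to 174 CPM. Cingulin and its paralogue therefore ranked the libraries differently.

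Of the polarity genes, those of the Crumbs complex gave the smallest p-values. Patj, the scaffold that joins the Crumbs complex to the junction, stood at 4.94, 7.12 and 4.51 CPM in HFD and at 67.9, 51.3 and 129 CPM in THBru. It had the smallest p of the 40 genes (log2 fold change 4.08, SE 0.49, edgeR adjusted p = 0.0777). Crb3, the epithelial Crumbs protein, stood at 0.0649, 0.144 and 0.189 CPM in HFD and at 16.1, 6.10 and 15.7 CPM in THBru (6.87, SE 0.87, edgeR adjusted p = 0.0831). All THBru libraries lay above all HFD libraries for both genes, and both passed when total counts replaced TMM scaling (edgeR adjusted p = 0.0379 for Patj and 0.0331 for Crb3; 0.328% of all genes passed as higher). Exons of Crb3 overlap Dennd1c on the opposite strand. Crb2, a Crumbs gene of retina, brain and podocytes, had 127, 437 and 0 counts in HFD 1 to 3, against 47, 160 and 48 in THBru 1 to 3, and its exons overlap Dennd1a on the opposite strand.

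The PAR complex sets the apical border. Pard6b stood at 2.35, 7.03 and 1.54 CPM in HFD and at 9.90, 15.4 and 22.3 CPM in THBru, again without overlap (2.21, SE 0.65, edgeR adjusted p = 0.178). Its paralogues Pard6g, with 6.29, 6.64 and 7.20 CPM in HFD and 6.06 to 15.6 CPM in THBru, and Pard6a, with 2.83 to 4.95 CPM in HFD and 2.57 to 5.36 CPM in THBru, overlapped between the groups. With TMM scaling Pard6g did not overlap, at 5.82 to 6.68 CPM in HFD and 9.59 to 13.1 CPM in THBru, and DESeq2 called it as higher (adjusted p = 0.00497). By edgeR its log2 fold change was 0.78 (SE 0.25, edgeR adjusted p = 0.186). Pard3, the scaffold of the complex, stood at 28.4, 37.1 and 30.1 CPM in HFD and at 34.0, 35.5 and 51.5 CPM in THBru (0.52, SE 0.28, edgeR adjusted p = 0.296). The spread of PAR genes between libraries was small beside that of the epithelial claudins.

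**Figure D3:**
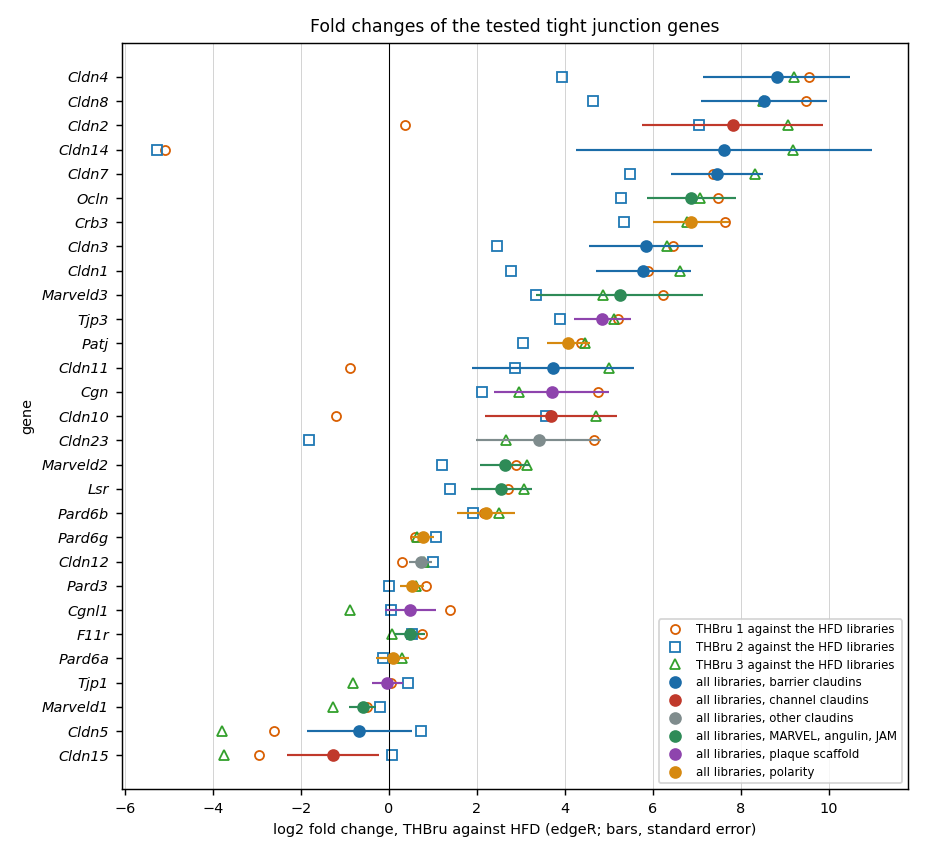
Log2 fold change of THBru against HFD (horizontal axis) for 29 of the tested genes (vertical axis). Filled points with bars are the edgeR estimate and standard error from all 6 libraries, coloured by role, and open markers are single THBru libraries against the 3 HFD libraries. The single-library markers of Cldn14 span from −5.27 to 9.20, while those of Patj stay between 3.06 and 4.46.

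Counted over the whole set, 0 of the 30 tested genes passed in edgeR in either direction, where 0.118% of 16140 genes passed as higher and 0% as lower. At an unadjusted p under 0.05, 18 were higher and 0 lower, against 13.9% and 8.93% of all genes. DESeq2 called 18 higher and 0 lower, against 10.3% and 6.83%. These 18 were Cldn1, Cldn2, Cldn3, Cldn4, Cldn7, Cldn8, Cldn10, Cldn23, Ocln, Marveld2, Marveld3, Lsr, Tjp3, Cgn, Patj, Crb3, Pard6b and Pard6g. Every THBru library lay above every HFD library in 15 of the 30, against 10.4% of all genes, and below in 0, against 12.6%. With TMM scaling the counts were 18, against 16.7% of all genes, and 0, against 15.1%. In CPM of the total count, the 15 were 5 of 8 tested barrier claudins, 4 of 6 other membrane proteins, 3 of 5 plaque genes, 3 of 6 polarity genes and 0 of 5 channel-forming or other claudins. The median log2 fold change was 3.55 over the 30 and 0.08 over all genes. These figures are descriptions: 13 of the 30 reached the minimum level for the test only through the THBru libraries, and 10 of the 40 did not reach it. Without the minimum, 22 of all 40 were higher at an unadjusted p under 0.05, against 9.71% of 32759 genes. Leaving out 1 library changed the counts called. Without THBru 2, 12 genes were higher and 1 lower, against 5.06% and 4.55% of all genes. Cldn2 alone was higher without THBru 1, against 0.489% of all genes. None passed without THBru 3, where 0.143% of all genes passed as higher. None passed when any HFD library was left out, and neither did any other gene (0%).

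Each THBru library was also set against the 3 HFD libraries alone, in fits that assume the lone library to vary as the HFD libraries did. THBru 1 gave 13 higher and 1 lower of the 30 (9.42% and 5.79% of all genes), with Cldn8 (log2 fold change 9.48) and Cldn4 (9.56) at the smallest adjusted p-values. THBru 3 gave 16 higher and 4 lower (15.3% and 13.2%), led by Cldn2 (9.08) and Cldn14 (9.20), with Cldn5, Cldn15, Marveld1 and Cgnl1 lower. THBru 2 gave 5 higher and 0 lower (2.17% and 0.0372%). These 5 were Cldn2 (7.04), Cldn7 (5.49), Crb3 (5.35), Cldn8 (4.64) and Patj (3.06). The 3 comparisons share their HFD libraries.

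Set against Epcam, which encodes an adhesion molecule of epithelial cells, the genes formed a different profile in each THBru library. Epcam stood at 0.312 to 0.635 CPM in HFD and at 56.1, 64.3 and 240 CPM in THBru 1 to 3. Per CPM of Epcam, Cldn4 stood at 1.49, 0.0499 and 0.487 in THBru 1 to 3, and Cldn8 at 1.68, 0.0956 and 0.357. Cldn2 stood at 0.0178, 2.95 and 3.10. Per CPM of Epcam, THBru 2 thus held far less Cldn4 and Cldn8 than THBru 1 and far more Cldn2. Such a ratio does not change with the scaling of a library. The order of the Epcam levels of THBru 1 and THBru 2 does depend on it, as TMM scaling sets THBru 1 higher. Patj varied less, at 1.21, 0.798 and 0.538, and Cldn7 stood at 0.418, 0.186 and 0.335. With 1 library of each profile no test was possible.

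**Figure D4:**
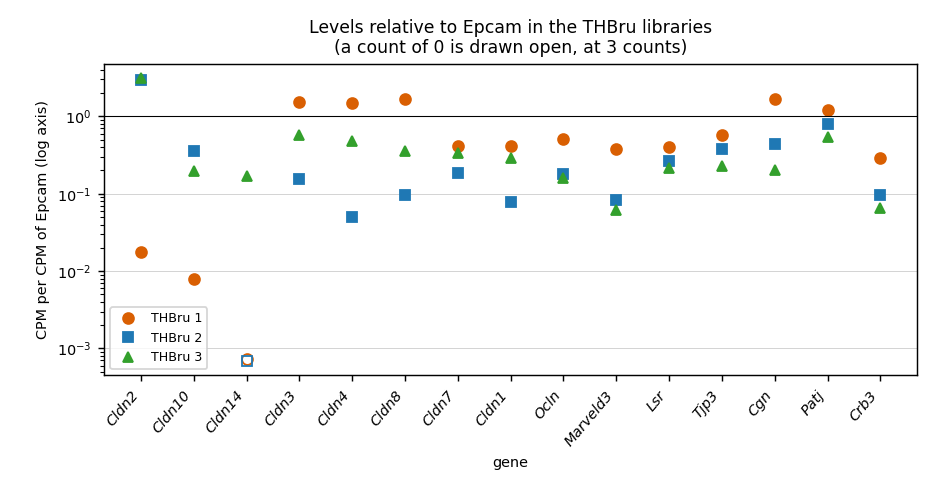
Level of 15 genes relative to Epcam (CPM per CPM of Epcam, vertical log axis) in the 3 THBru libraries, with one marker per library and gene. Cldn2 lies near 3 in THBru 2 and THBru 3 and at 0.0178 in THBru 1, while Cldn4 lies at 1.49 in THBru 1 and 0.0499 in THBru 2.

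Variation among the HFD libraries had an order of its own. HFD 2 held the highest HFD level of Cgn, Lsr, Cldn3, Marveld3, Pard6b and Crb2, with Cgn at 14.2 CPM against 2.13 and 0.946 CPM. Other genes of the set went the other way. Tjp3 (2.44, 0.693 and 1.32 CPM in HFD 1 to 3), Marveld2 (2.83, 2.48 and 3.97 CPM) and Cldn2 (1.43, 1.13 and 1.34 CPM) were lowest in HFD 2. The mesothelial list of 6 genes, among them Msln and Upk3b, stood at 445 CPM in HFD 2, against 70.5 and 22.1 CPM in HFD 1 and HFD 3, and the general epithelium list at 89.5 CPM against 28.9 and 11.9 CPM. The kidney tubule list was also highest in HFD 2, at 46.1 CPM against 7.38 and 2.96 CPM in HFD 1 and HFD 3. The part of mesothelium or of the other lists in these levels was not tested. Without HFD 2, the fold changes of 9 tested genes, Ocln, Cldn7, Cldn10 and Cldn11 among them, were over 1.5 times larger. In the THBru libraries the mesothelial list stood at 213, 77.5 and 250 CPM, but its genes did not move together. In THBru 1, 2 of the 6 genes lay above every HFD library and 4 below. In THBru 3, 2 lay above and 1 below, and in THBru 2 these counts were 0 and 0.

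Of 40 other junction genes outside the symbol rule, 38 were tested and 0 passed in either direction. At an unadjusted p under 0.05, 11 were higher and 4 lower (13.9% and 8.93% of all genes), and DESeq2 called 8 higher and 3 lower (10.3% and 6.83% of all genes). Their median log2 fold change was 0.01. Those with the smallest p were Prkcz, the atypical protein kinase C of the PAR complex (2.87, SE 0.45, edgeR adjusted p = 0.104), Ildr1, an angulin (7.11), Llgl2, a basolateral polarity gene (2.45), Amot, a junctional angiomotin gene (3.05), Wnk4, a kinase that controls salt transport in the kidney (3.48), and Rock2, a kinase of actomyosin contraction (−1.37), with log2 fold changes in parentheses. Ildr1 stood at 0.390 to 0.757 CPM in HFD and at 100.2, 8.69 and 62.4 CPM in THBru 1 to 3, the order of Cldn8.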

How the data were processed

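The deposited table gives whole-number counts and FPKM per gene for the 6 samples, per the file headers. The submitters' processing notes list cutadapt 1.9, HISAT2 2.2.1, StringTie 2.1.6, edgeR and DESeq2, with no role for any. Neither the counting program nor its strand setting nor the genome build is stated in the labels or headers. Coordinates are the table's, read as GRCm38 (34 of the 40 genes have those of GENCODE M21). Library preparation marked the second strand with dUTP, per the labels' protocols.

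Rows with one symbol were summed (32819 rows, 32759 genes). The 16140 genes that averaged 0.5 FPKM or more were tested with edgeR 4.0.16 (R 4.3.3): quasi-likelihood, robust, TMM scaling, THBru against HFD, two-sided, Benjamini-Hochberg adjustment over all tested genes, threshold 0.05. An SE is the log2 fold change divided by the square root of F. DESeq2 1.42.0 was an alternative. CPM are counts per 1e6 total counts of a library. Intervals and limits cover counting error only.

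The gene set, role groups and lists were chosen with earlier results of these data known. By rule, levels per library were given for genes reaching 5 CPM in a library and for their close neighbours, and fold changes for the 25 genes with the smallest p. Fold changes of Cldn5, Cldn15, Cgnl1 and Tjp1, and counts of Cldn6, Cldn9 and Cldn19, were added after their values were seen, as was the comparison of TMM-scaled levels. In counts simulated for the THBru and HFD groups (16140 genes, spread of all libraries), 36.1% of genes changed 8-fold and 0% of those changed 2-fold were recovered. With the spread of the HFD libraries these were 97.2% and 13.0%. Each simulation gave all genes the same spread, and the high seminal vesicle level of THBru 1 was not simulated. No pair of libraries agreed within sampling noise (chi-square per gene at least 224). Promoters are RefSeq sequences on GRCm38.p6. The values of 1 of the 40 genes are not reported here, though it is included in the counts over the set.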

Additional observations from a re-analysis of the deposited data

How the results depend on the processing

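The named genes of the 40 kept their side of the threshold with DESeq2 size factors in edgeR, filterByExpr (Cldn14 not tested), a mean FPKM of at least 1 (Cldn11 not tested), no minimum and non-robust moderation. The number of higher genes over the whole table was 19, and 53 with total counts, 30 with that minimum of 1 FPKM, 1670 with DESeq2, 0 to 817 with 1 library left out and 1521, 350 and 2465 with THBru 1, 2 or 3 alone. Lower genes numbered 0, and 1103, 0 to 735, and 935, 6 and 2136 in the DESeq2, left-out and single-library fits. Of the 40, the 0 higher became 2 with total counts, 18 with DESeq2, 0 to 12 with 1 library left out and 13, 5 and 16 in the single-library fits. The 0 lower became 0 to 1 with 1 library left out (0 to 4.55% of all genes). Of the other junction genes, 8 higher and 3 lower were called by DESeq2, 0 to 7 higher and 0 to 4 lower with 1 library left out, 8, 1 and 10 higher in the single-library fits and 5 and 9 lower with THBru 1 or 3 alone.

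Signs turned in single-library fits for Cgnl1 (−0.88, THBru 3), Cldn10 (−1.21, THBru 1), Cldn11 (−0.88, THBru 1), Cldn14 (−5.10 and −5.27, THBru 1 and 2), Cldn15 (0.069, THBru 2), Cldn23 (−1.82, THBru 2), Cldn5 (0.73, THBru 2), Pard6a (−0.15, THBru 2) and Tjp1 (0.038 and 0.43, THBru 1 and 2). With a library left out, they turned for Cgnl1 without THBru 1 (range −0.37 to 0.87), Cldn14 without THBru 3 (−5.15 to 8.21), Pard6a without HFD 1 or THBru 3 (−0.14 to 0.27) and Tjp1 without HFD 3 or THBru 3 (−0.33 to 0.23), and with total counts for Pard6a (−0.029). Without THBru 1, 2 or 3, the fold changes of 6, 2 and 6 genes moved down by over 1.5 times. The cause was not tested.

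As count shares, Cldn5 held 47.0, 49.2 and 66.1% of claudin counts in HFD 1 to 3 (95% Wilson intervals at most 1.74 points wide). Replicate numbers are shared by the groups but did not pair the samples: deviations of same-numbered samples correlated at 0.048, −0.0092 and −0.062, and with the replicate block 0 genes were called. The scalings moved the median log2 fold change of all genes from 0.08 to −0.05. Depth limits the genes under 5 CPM, where a count of 0 still allows about 0.04 CPM.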
